A study of Pan troglodytes and Macaca mulatta with 12 samples.

Results

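The genes described here are the oligoadenylate synthetase (OAS) family, OAS1, OAS2, OAS3 and OASL, together with DTX1, the gene next to the OAS cluster. They are 5 of the 16903 genes with at least 1 count in the series and were taken by their identifiers, with 39 counted exons of 119202 in all. The set was chosen by measured values, the counts of these libraries, in which earlier results had shown the genes higher in chimpanzee than in rhesus macaque. Their species differences are therefore given as a description, with no test. RNA was sequenced from lymphoblastoid cell lines, that is, cultured B cells that have been immortalised, of 6 chimpanzees (Pan troglodytes, 3 females and 3 males) and 6 rhesus macaques (Macaca mulatta, 2 females and 4 males), with 1 library per individual. All lines were grown in supplemented RPMI-1640 medium, and the labels give no genotype, treatment or age. The human lines of the study design were not analysed here.

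OAS1, OAS2 and OAS3 are enzymes that bind double-stranded RNA, a product of many viruses, and then join ATP into short oligoadenylates. These oligoadenylates switch on RNase L, which cuts cellular and viral RNA and so limits viral growth. All OAS genes are classical targets of interferon, the secreted alarm signal of infected cells. OASL is the OAS-like member. In humans it makes no oligoadenylate, carries ubiquitin-like domains and strengthens signalling by the RNA sensor RIG-I. DTX1 encodes Deltex, a ubiquitin ligase that modulates Notch receptor signalling in lymphocytes, and it belongs to another pathway than the OAS genes.

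The files give coordinates of a genome build that the sources used here do not name. In these coordinates the genes lie on chromosome 12. OAS1 (ENSG00000089127) spans 111829228 to 111841881 with 6 counted exons. OAS3 (ENSG00000111331) follows after 21.9 kb, from 111863758 to 111891943 with 11 exons. OAS2 (ENSG00000111335) lies 8.71 kb further on, from 111900657 to 111933911, also with 11 exons. DTX1 (ENSG00000135144) begins 65.7 kb after OAS2 and spans 111999612 to 112020216 with 5 exons. OASL (ENSG00000135114), with 6 exons from 119942504 to 119961342, lies 7922 kb beyond DTX1. The chimpanzee RefSeq assembly NHGRI_mPanTro3-v2.0_pri has the same order, with RPH3A, OAS1, OAS3, OAS2, DTX1 and RASAL1 as consecutive protein-coding genes. None of the 39 exons overlapped an exon of another gene in the files (0 of 39).

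Library totals were between 1434241 and 4751954 counts in chimpanzee and between 1801830 and 4600137 in rhesus macaque. The 5 genes together took between 0.0826% and 0.148% of a chimpanzee library and between 0.00188% and 0.00898% of a rhesus macaque library. Levels are given in CPM, counts per 1000000 of the library, on TMM-scaled library sizes. A level in a bulk culture cannot tell fewer expressing cells from less RNA per cell. The files use a shared set of exons for both species. The sources used here do not say how those exons were matched between the genomes, and the part this has in the counts was not tested.

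OAS1 had the highest mean CPM of the genes in chimpanzee and was nearly unread in rhesus macaque. It was not the highest in every chimpanzee library, since OAS2 stood above it in replicates 1 and 5 and DTX1 in replicate 4. Chimpanzee replicates 1 to 6 held 501, 546, 382, 392, 297 and 422 CPM of OAS1, and rhesus macaque replicates 1 to 6 held 0.610, 0.494, 0.997, 2.263, 0 and 0.216 CPM. The groups were far apart, and the lowest chimpanzee library stood 131-fold above the highest rhesus macaque library. The rhesus macaque values rest on 12 counts in all, against 6973 in chimpanzee. OAS1 averaged 423 ± 89.3 CPM in the chimpanzee lines and 0.763 ± 0.810 CPM in the macaque lines (SD, n = 6 each). The fitted log2 fold change, chimpanzee over rhesus macaque throughout, was 9.11 with a standard error of 0.49, the 8th highest of 9440 genes fitted. Without rhesus macaque replicate 4, the library with most OAS1, it was 9.97.

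OAS3, the longest enzyme of the family, went the same way. Its chimpanzee levels in replicates 1 to 6 were 218, 209.6, 162, 177, 98.1 and 131 CPM, and its rhesus macaque levels were 0, 0.987, 0, 1.94, 4.23 and 1.73 CPM. All chimpanzee libraries lay above all rhesus macaque libraries, of which 2 listed no OAS3 read. The means were 166 ± 46.0 CPM in the chimpanzee lines and 1.48 ± 1.58 CPM in the macaque lines (SD, n = 6 each), from 2623 and 32 counts. The log2 fold change was 6.56 with a standard error of 0.53, and 7.15 without rhesus macaque replicate 5.

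OAS2 was the OAS gene that rhesus macaque lines expressed most. It held 510.0, 418, 209, 203, 298 and 298 CPM in chimpanzee replicates 1 to 6, and 13.4, 20.7, 12.96, 74.3, 36.7 and 27.0 CPM in rhesus macaque replicates 1 to 6. The groups did not overlap, but the lowest chimpanzee library was only 2.73-fold above the highest rhesus macaque library, replicate 4. OAS2 averaged 323 ± 121 CPM in the chimpanzee lines and 30.9 ± 23.1 CPM in the macaque lines (SD, n = 6 each), which gave a log2 fold change of 3.37 (standard error 0.43.) Of the counts of all 5 genes, OAS2 took 25.4% in chimpanzee (5090 of 20066) and 78.3% in rhesus macaque (584 of 746). The share of OAS1 was 34.8% in chimpanzee and 1.61% in rhesus macaque.

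OASL, which lies apart from the cluster, was the lowest of the genes in chimpanzee and had the smallest species difference. Chimpanzee replicates 1 to 6 held 27.2, 42.2, 13.1, 27.7, 35.9 and 15.9 CPM, and rhesus macaque replicates 1 to 6 held 6.71, 3.46, 5.48, 16.8, 3.43 and 1.95 CPM. Here the groups overlapped, since rhesus macaque replicate 4 stood above chimpanzee replicates 3 and 6. The means were 27.0 ± 11.2 CPM in the chimpanzee lines and 6.31 ± 5.41 CPM in the macaque lines (SD, n = 6 each), which gave a log2 fold change of 2.09 (standard error 0.49.) Without rhesus macaque replicate 4 it was 2.70.

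DTX1 had the widest contrast after OAS1. It stood at 221, 215, 337, 419, 100.5 and 370.0 CPM in chimpanzee replicates 1 to 6, and at 4.88, 0, 0.499, 1.94, 0 and 0 CPM in rhesus macaque replicates 1 to 6. All chimpanzee libraries lay above all rhesus macaque libraries, and 3 rhesus macaque libraries listed no DTX1 read. DTX1 averaged 277 ± 119 CPM in the chimpanzee lines and 1.22 ± 1.95 CPM in the macaque lines (SD, n = 6 each), from 4961 and 15 counts. The log2 fold change was 8.11 with a standard error of 0.76. Rhesus macaque replicate 1 gave 8 of those 15 counts, and without it the log2 fold change was 9.09.

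**Figure D1:**
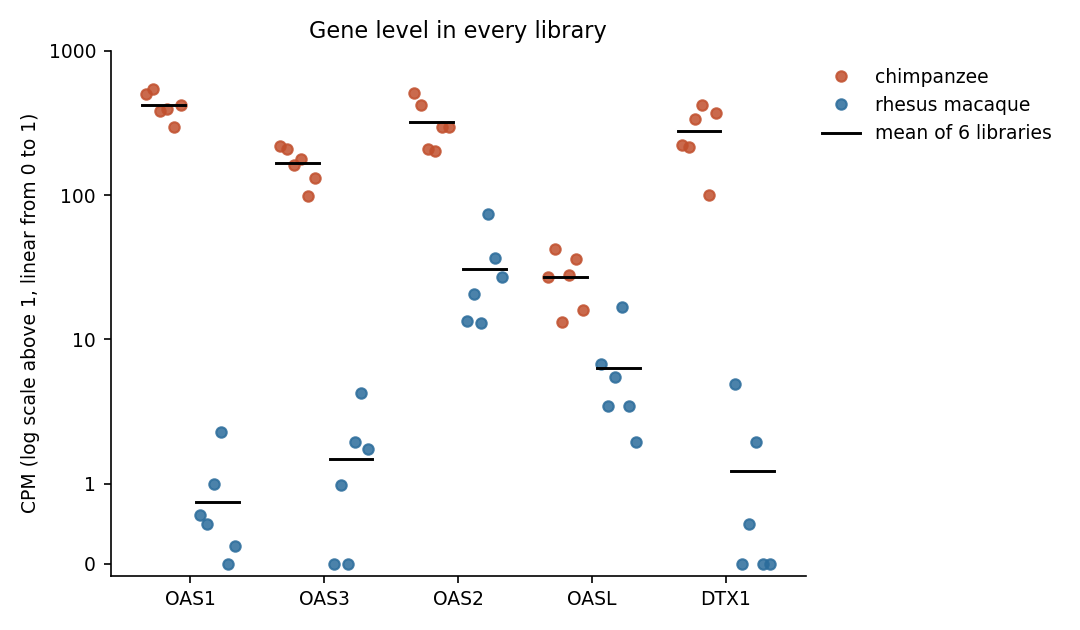
Level of each gene in CPM (vertical axis, logarithmic above 1 and linear from 0 to 1) in every chimpanzee and rhesus macaque library, with the mean of 6 libraries as a line. Chimpanzee libraries lie above all rhesus macaque libraries for OAS1, OAS3, OAS2 and DTX1, and the groups overlap for OASL, where rhesus macaque replicate 4 reaches 16.8 CPM.

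In 4 of the 5 genes every chimpanzee library stood above every rhesus macaque library, which held for 13.3% of the 9440 genes fitted. The genes were chosen for this difference, so nothing is read from that count. All 5 passed the filter on low counts, but OAS1, OAS3, DTX1 and OASL passed only through their chimpanzee levels. Their medians were 1, 4, 0.5 and 11 counts in a rhesus macaque library. OASL was at 3.46, 3.43 and 1.95 CPM in rhesus macaque replicates 2, 5 and 6, too low for the filter. Over all genes, 24.7% were higher and 23.6% lower in chimpanzee (edgeR quasi-likelihood test, Benjamini-Hochberg adjusted p under 0.05).

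Per kilobase of counted exon, the levels in chimpanzee ran in the order OAS1, DTX1, OAS2, OAS3 and OASL. OAS1 averaged 340.1 ± 71.7 CPM per kb, and its lowest library (238 CPM per kb) was above the highest of DTX1 (190 CPM per kb, rounded from 189.7). DTX1 at 125 ± 53.7, OAS2 at 91.15 ± 34.1 and OAS3 at 67.4 ± 18.7 CPM per kb overlapped in range with their neighbours in that order. OASL at 13.7 ± 5.68 CPM per kb lay below them all, with its highest library at 21.4 and the lowest OAS3 library at 39.8 CPM per kb. In rhesus macaque the order was different. OAS2 came first at 8.72 ± 6.53 CPM per kb and OASL second at 3.20 ± 2.74. Their ranges overlapped, but within each rhesus macaque library OAS2 was above OASL, narrowly in replicate 1, on 22 and 11 counts. OAS1, OAS3 and DTX1 averaged 0.613, 0.601 and 0.552 CPM per kb and could not be ordered against their spread (SD between 0.641 and 0.880).

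The spread between individuals of one species also differed among the genes. In chimpanzee the SD of log2 CPM was 0.31 for OAS1, 0.44 for OAS3, 0.53 for OAS2, 0.64 for OASL and 0.75 for DTX1, beside a median of 0.48 over all genes fitted. OAS1 thus varied little between chimpanzee lines, 1.84-fold between the lowest and the highest, and DTX1 varied 4.17-fold. In rhesus macaque the SD was 0.93 for OAS2 and 0.94 for OASL, beside a median of 0.45. Their ranges there were 5.74-fold and 8.63-fold. Median counts in a library were 83.5 for OAS2 and 11 for OASL in rhesus macaque, and 1018 for OAS1 in chimpanzee. At low counts the SD holds more counting noise, and the medians over all genes were not matched for depth. The part of counting noise was not tested. Both genes were highest in rhesus macaque replicate 4, as was OAS1.

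Along the chromosome, the genes around the 4 neighbours were mixed, some with a species difference and some without. The nearest counted gene before OAS1 ends 420.1 kb away, has a single exon and was too low to be fitted, at 0.411 ± 0.161 CPM in the chimpanzee lines and 3.33 ± 1.63 CPM in the macaque lines (SD, n = 6 each). The next 2 in that direction were well expressed, at 356 and 376 CPM in the chimpanzee lines and 259 and 210.5 CPM in the macaque lines, with log2 fold changes of 0.45 and 0.83. Just after DTX1, 5.92 kb on, a gene with 16 counted exons had 4.79 ± 3.70 CPM in the chimpanzee lines (90 counts) and 0 counts in rhesus macaque. A gene with 4 exons, 54.8 kb after DTX1, was read 38 times in chimpanzee and not once (0 counts) in rhesus macaque. The third gene after DTX1, 59.2 kb from it and with 19 exons, stood at 399 ± 105.3 CPM in the chimpanzee lines and 504 ± 100.2 CPM in the macaque lines, a log2 fold change of -0.34 (standard error 0.21.) Within 1.5 Mb on each side, 17 other genes were fitted. Of these, 6 had higher and 3 lower levels in chimpanzee (adjusted p under 0.05, edgeR quasi-likelihood test), beside 24.7% and 23.6% over all genes fitted. Their median log2 fold change was 0.42, beside 0.04 over all genes fitted, and their range was -4.47 to 3.44. OAS1, OAS3 and DTX1 lay beyond that range, and OAS2 at 3.37 lay inside it. These genes were chosen for their species difference and the 17 others were not, so nothing is read from that comparison.

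**Figure D2:**
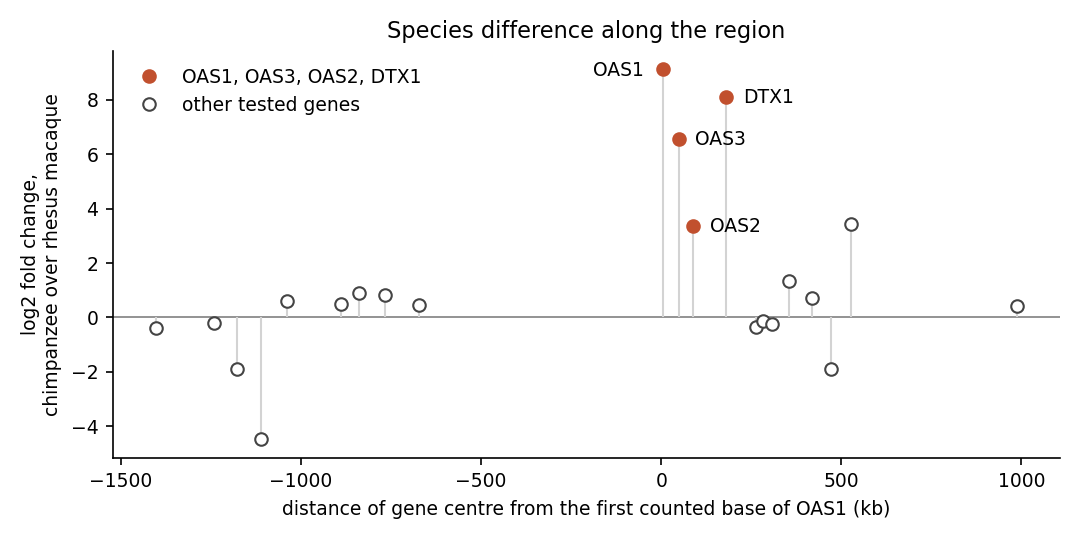
Log2 fold change, chimpanzee over rhesus macaque (vertical axis), of each fitted gene against the distance of its centre from the first counted base of OAS1 in kb (horizontal axis). The filled points are OAS1, OAS3, OAS2 and DTX1 at 9.11, 6.56, 3.37 and 8.11, and the 17 open points lie between -4.47 and 3.44.

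The difference was not carried by single exons. All 39 exons had a higher mean in chimpanzee, and in 35 of them every chimpanzee library was above every rhesus macaque library, which held for 7.45% of the 90834 exons with at least 10 counts. Exons of a gene share its reads and its choice, so these counts describe the genes and are no separate evidence. The 4 exons with overlap were 3 of OASL and the 62-base exon 2 of DTX1.

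OAS1 was read over its whole length in chimpanzee, between 239 and 444 CPM per kb in its 6 exons. In rhesus macaque exons 1 to 5 had 1, 3, 2, 2 and 4 counts, and exon 6, from 111841675 to 111841881, had none (0 counts). Exon 6 had 1505 counts in chimpanzee and was at least 527-fold higher there than a floor of 3 counts over all rhesus macaque libraries. That floor would be 25% of the OAS1 counts in rhesus macaque, and exon 6 took 21.6% of them in chimpanzee. The 0 therefore does not set exon 6 apart from the rest of OAS1. Floors and intervals use counts summed over libraries and treat each read as independent. They cover counting error only and leave out differences between individuals. Molecules carried no identifiers before PCR, so copies were not told apart and even the counting error may be too small. OAS3 showed the same even coverage in chimpanzee, between 46.7 and 87.6 CPM per kb over 11 exons. In rhesus macaque every OAS3 exon had between 1 and 5 counts, so the 32 counts were spread over the gene and did not pile up on one exon.

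OAS2 was less even between the species. Its exon 11, the longest at 1350 bases from 111932562 to 111933911, stood at 80.8 ± 41.6 CPM per kb in the chimpanzee lines and 13.4 ± 11.6 CPM per kb in the macaque lines (SD, n = 6 each), a ratio of 6.02. The other 10 exons had higher ratios. The lowest of these was 10.8 in exon 5, and the highest were 45.2 in exon 2 and 45.5 in exon 6, where rhesus macaque had only 9 and 11 counts. Rhesus macaque replicate 4 gave 17 of the 25 counts of exon 5 in that species. Without that library the ratio was 24.4 in exon 5, 17.3 in place of 11.2 in exon 8 and 80.8 in exon 2, and exon 11 still had the lowest, at 8.97, before exon 10 at 13.9. Without exon 11, OAS2 had 213 CPM in the chimpanzee lines and 12.8 CPM in the macaque lines, a ratio of 16.7 in place of 10.4 for the whole gene.

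Exon 11 accordingly took a larger part of OAS2 counts in rhesus macaque. In chimpanzee replicates 1 to 6 its share was 39.5%, 27.8%, 26.6%, 28.7%, 27.6% and 47.2%, and in rhesus macaque replicates 1 to 6 it was 50%, 52.4%, 61.5%, 64.3%, 62.6% and 45.6%. The groups overlapped by 1 library on each side, chimpanzee replicate 6 and rhesus macaque replicate 6. The mean share was 32.9% ± 8.47 over the chimpanzee libraries and 56.1% ± 7.76 in rhesus macaque (SD, n = 6 each). Exon 11 holds 38.1% of the counted length of the gene.

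OASL showed the same shape at its own longest exon, number 1, of 741 bases from 119942504 to 119943244. Exons are numbered by rising coordinate in the files. In the human genome OASL is read towards falling and the other 4 genes towards rising coordinates, so exon 1 of OASL, exon 11 of OAS2 and exon 5 of DTX1 are all on the 3′ side. Exon 1 of OASL took 25.6%, 31.1%, 31.4%, 26.4%, 25.8% and 33.3% of the gene's counts in chimpanzee replicates 1 to 6, and 54.5%, 42.9%, 81.8%, 51.9%, 61.5% and 44.4% in rhesus macaque replicates 1 to 6. These groups did not overlap, although the rhesus macaque shares rest on as few as 7 counts in a library. The mean was 29.0% ± 3.38 over the chimpanzee libraries and 56.2% ± 14.3 in rhesus macaque (SD, n = 6 each). The ratio of exon levels, chimpanzee over rhesus macaque, was 2.16 in exon 1 and 12.9 in exon 6, at the other end of the gene. Exon 6 had only 5 counts in rhesus macaque, in 3 libraries. Without rhesus macaque replicate 4 the ratios were 3.05 and 18.2. Exons 2 to 5 had ratios of 3.95, 8.58, 5.30 and 8.69, which did not rise evenly.

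DTX1 had most of its counts in exon 5, of 1314 bases from 112018903 to 112020216, at 75.6% ± 3.20 in chimpanzee (SD, n = 6). In rhesus macaque 14 of 15 counts fell there, 93.3% (95% exact binomial interval 68.1% to 99.8%), among them all 8 of replicate 1. Exon 1 of DTX1, 682 bases long, held 897 counts in chimpanzee against 0 in rhesus macaque, at least 284-fold higher in chimpanzee than the floor of 3 counts. That floor would be 20% of the DTX1 counts in rhesus macaque, and exon 1 took 18.1% of them in chimpanzee. The 0 therefore does not show a lower share of exon 1 in rhesus macaque.

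**Figure D3:**
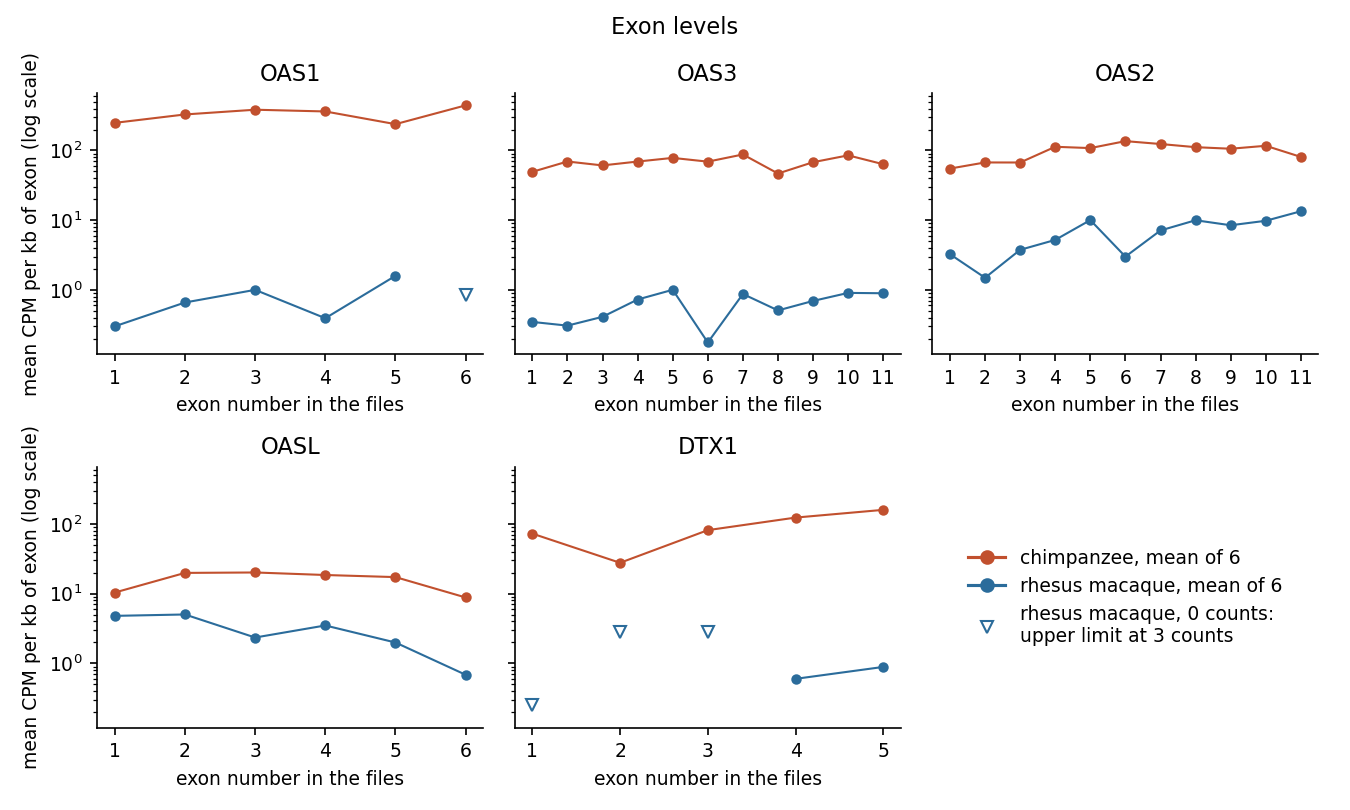
Mean level of each exon in CPM per kb of exon (vertical axis, logarithmic) by exon number in the files, for chimpanzee and rhesus macaque (means of 6 libraries each). The lines of OAS1, OAS3 and DTX1 are furthest apart, those of OAS2 close towards exon 11 and those of OASL towards exon 1, and open triangles mark the upper limit where rhesus macaque had 0 counts.

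A higher share of the longest exon in rhesus macaque was not unusual in direction over the other genes. Among 3485 fitted genes with at least 5 exons, a longest exon of at least 600 bases and at least 50 counts in each species, the median share was 42.2% in chimpanzee and 44.7% in rhesus macaque. It was higher in rhesus macaque in 63.0% of these genes. The differences, chimpanzee minus rhesus macaque from summed counts, were -23.2 percentage points for OAS2 and -26.2 for OASL, against a median of -2.31 over the 3485 genes. Lower differences were found in 0.918% and 0.459% of those genes. The members were chosen on the same species contrast, so these percentages are a description and no test. The 3485 genes were not matched to the members in counts. OASL had only 103 counts in rhesus macaque, 52 of them in replicate 4. Library by library, the median share ran from 37.5% to 46.4% in chimpanzee and from 42.2% to 48.5% in rhesus macaque. Chimpanzee replicates 1 and 6, with the highest shares of OAS2 exon 11 in that species, also had the highest medians there, 44.9% and 46.4%. Whether RNA quality plays a part in the exon shares was not tested.

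**Figure D4:**
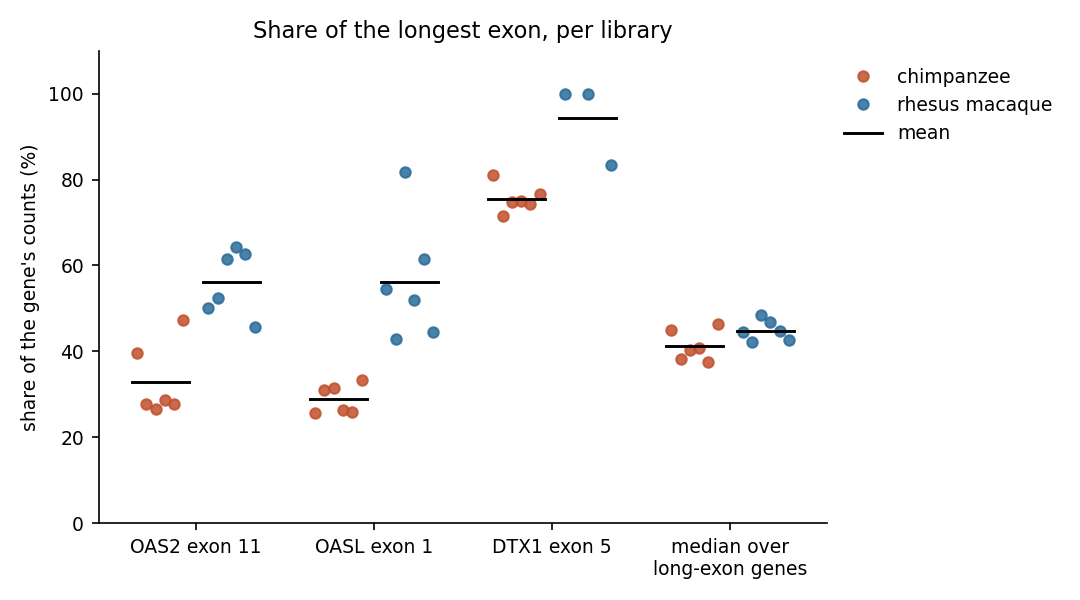
Share of the gene's counts (%, vertical axis) in the longest exon of OAS2, OASL and DTX1 and, at the right, the median share over 3485 genes with a long exon, one point per library with counts. Lines are means, at 32.9% and 56.1% for OAS2 and 29.0% and 56.2% for OASL in chimpanzee and rhesus macaque, while the medians over many genes lie between 37.5% and 48.5% in all libraries.

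Whether the genes rise and fall together between lines of one species is a question that the choice of the genes did not use. The genes that averaged 2 CPM or more in a species were compared over its 6 libraries, which gave 11 pairs, 10 in chimpanzee and 1 in rhesus macaque. In chimpanzee OAS1 and OAS3, the first neighbours of the cluster, had the closest relation (Pearson r = 0.872, exact permutation p = 0.0333, adjusted over 11 pairs p = 0.367). Their Spearman rho was 0.771 (exact permutation p = 0.103, adjusted p = 0.749), and r was 0.564 without replicates 2 and 5, the libraries farthest from the median of OAS1. The pair therefore did not pass the correction and its r rests in part on those libraries. No other pair had an unadjusted p under 0.05. The smallest exact permutation p among them was 0.158 for Pearson's r (OASL and DTX1) and 0.136 for Spearman's rho (OAS1 and OAS2).

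DTX1 had no relation to an OAS gene in the chimpanzee lines that passed the test, and the signs were mixed. Its r was -0.613 with OASL and -0.437 with OAS2, 0.342 with OAS1 and 0.433 with OAS3 (n = 6, exact permutation p = 0.158, 0.419, 0.511 and 0.458, each adjusted p = 0.625). Spearman's rho for the same pairs was -0.543, -0.486, 0.0286 and 0.0857 (exact permutation p = 0.297, 0.356, 1 and 0.919, adjusted p = 0.782, 0.782, 1 and 1). Without the 2 libraries farthest from the median of the OAS gene, r was -0.499, -0.311, -0.870 and -0.846. Replicate 5 had the lowest level of both DTX1 and OAS1 and of OAS3, and replicates 1 and 2, with the highest OAS2, stood below the chimpanzee mean of DTX1. In rhesus macaque OAS2 and OASL had r = 0.414 (exact permutation p = 0.439, adjusted p = 0.625) and rho = -0.0286 (exact permutation p = 1, adjusted p = 1), and r was -0.713 without replicates 3 and 4.

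The genes whose levels moved most like the OAS genes between lines were ranked by the smaller of their correlations in the 2 species with a mean log2 level of OAS genes, over 6 libraries each and 8251 genes. The mean held all 4 OAS genes in chimpanzee, but in rhesus macaque only the 2 with enough counts, OAS2 and OASL, so it is not the same quantity in both species. First came ENSG00000165494, on chromosome 11 from 82550017 to 82574478, with r = 0.894 in chimpanzee and 0.884 in rhesus macaque. Its level was between 60.8 and 149 CPM in the chimpanzee lines and between 35.5 and 72.7 CPM in the macaque lines. Second was ENSG00000162961, on chromosome 2 from 32102476 to 32118366, with r = 0.940 in chimpanzee and 0.833 in rhesus macaque. These are the closest of many genes over few libraries and share library and depth, so they are given with no p. The mean of OAS2 and OASL in rhesus macaque stood highest in replicate 4, at 1.56 on the log2 scale above the species mean, with the other 5 libraries between -0.52 and 0.02. Without that library the rhesus macaque r of the 2 genes was 0.681 and 0.236.

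Sex was the other label of the lines, and it too was not used to choose the genes. In rhesus macaque both females lay above all 4 males for OAS2, at 74.3 and 36.7 CPM in females and between 12.96 and 27.0 CPM in males. The log2 fold change, female over male, was 1.56 ± 0.38 (SE; unadjusted p = 0.00145, edgeR quasi-likelihood test, adjusted p = 1 over 11045 genes), higher in 2 of 2 females. Such a separation towards females was found in 4.36% of all genes in rhesus macaque. OAS3 also had both females above all males, at 1.94 and 4.23 CPM against at most 1.73 CPM. Its log2 fold change was 1.78 ± 0.75 (SE; unadjusted p = 0.0341, edgeR quasi-likelihood test) and did not pass the adjusted threshold. These levels rest on 6 and 16 counts in the females and 0, 2, 0 and 8 in the males, too few to read a difference from. The female libraries, replicates 4 and 5, had totals of 3352686 and 3759443 counts, above 3 of the 4 males at 1801830, 2103199 and 2122502 counts and below male replicate 6 at 4600137. Over the 6 rhesus macaque libraries, the log2 level of OAS2 had r = 0.681 with the log2 library total (exact permutation p = 0.156, adjusted over 10 relations p = 0.681) and rho = 0.600 (exact permutation p = 0.242, adjusted p = 0.345). Without replicates 1 and 6, the totals farthest from the median, r was 0.814. The part of depth in the difference between the sexes was not tested.

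In chimpanzee OAS2 was not higher in females. It had 209, 203 and 298 CPM in females and 510.0, 418 and 298 CPM in males, a log2 fold change of -0.78 (standard error 0.36) (edgeR adjusted p = 0.695). The difference between the sex effects of the 2 species, chimpanzee minus rhesus macaque, was -2.33 ± 0.53 for OAS2 (SE; unadjusted p = 7.99e-04, edgeR adjusted p = 0.845). An unadjusted p under 0.05 was reached by 5.19% of genes for that difference, and among the 5 genes by OAS2 and OASL (for OASL -2.13, unadjusted p = 0.0273, edgeR adjusted p = 0.938). The OASL value rests on rhesus macaque replicate 4, without which it was -0.62, and the sex effect of OASL in rhesus macaque, 1.24 with all libraries, was then -0.26.

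DTX1 separated the sexes in chimpanzee, with 337, 419 and 370.0 CPM in females and 221, 215 and 100.5 CPM in males. The log2 fold change was 1.08 ± 0.72 (SE; edgeR adjusted p = 0.830), and 6.26% of all genes had all chimpanzee females above all males. With edgeR, none of the 5 genes passed the adjusted threshold for sex in either species, and over all genes the counts were 0 in chimpanzee and 0 in rhesus macaque, with 797 genes (7.22%) and 268 genes (2.43%) at an unadjusted p under 0.05. DESeq2 called 49 genes in chimpanzee and 0 in rhesus macaque, none of them among the 5.

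**Figure D5:**
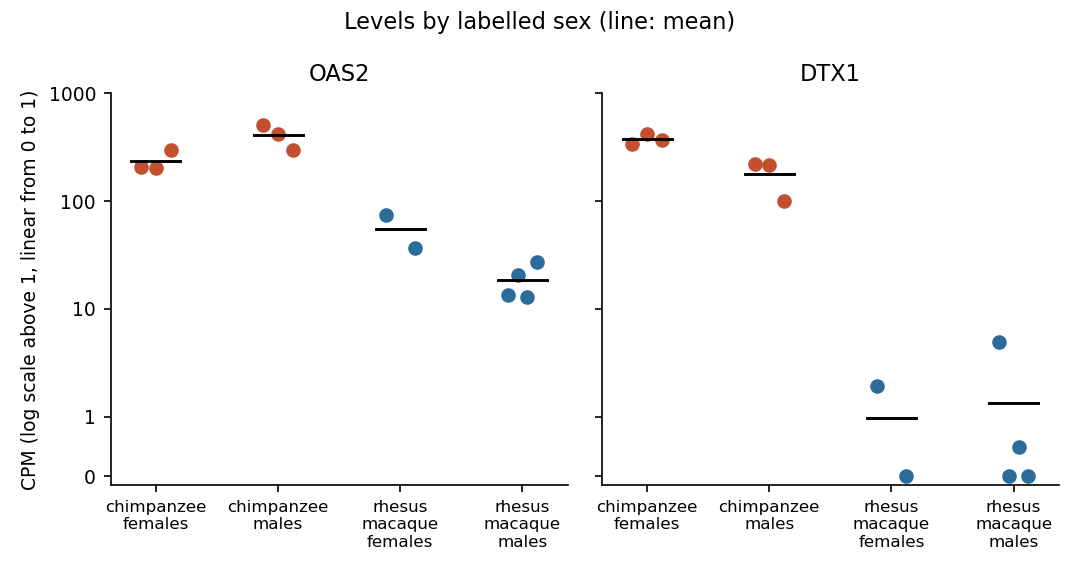
OAS2 and DTX1 levels in CPM (vertical axis, logarithmic above 1 and linear from 0 to 1) by labelled sex, one point per library with the mean as a line. OAS2 is between 36.7 and 74.3 CPM in the 2 rhesus macaque females and between 12.96 and 27.0 CPM in the 4 males, and DTX1 is between 337 and 419 CPM in the 3 chimpanzee females and between 100.5 and 221 CPM in the 3 males.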

How the data were processed

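Each library's deposited file holds raw counts per exon, as whole numbers of at least 1. Missing exons were taken as 0. Per the labels' protocols, cDNA libraries were size selected, amplified by PCR and read on an Illumina Genome Analyzer, with no step that marks strand. The sources used here do not give the aligner, counter or build. Counts were summed per gene. Replicate numbers only name libraries. The edgeR 4.0.16 quasi-likelihood test (R 4.3.3, limma 3.58.1) was fitted to all genes passing the default filter, 9440 for species and 11045 for the 4 groups of species by sex, with TMM scaling and Benjamini-Hochberg adjustment (threshold 0.05). Log2 CPM used a prior count of 2, and standard errors are the log2 fold change over the square root of F. The fits were tested on simulated data. DESeq2 1.42.0 was an alternative. The closest libraries of 1 species had a chi-square of 15.6 per degree of freedom, well above sampling noise.

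The genes, lists and tests were chosen with earlier results of these data known. Gene names came with the list of members. Of 16903 identifiers 0 matched the name tables, so the pathway, interferon, Notch and cell type marker lists were not run, the labelled cell type was not checked against markers, and other genes are given by position, with at most 2 identifiers. Named are the 5 genes, 3 counted neighbours on each side, and the genes most like the OAS genes.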

Additional observations from a re-analysis of the deposited data

Results flagged for a closer look

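Of 20 sets of libraries examined for a single value far from the rest, 2 held one. The nominal chance rate of 1 in 20 was not measured in these data. A set of males lies within its species and some sets hold near-zero counts, so no excess is read from this. OASL in rhesus macaque had its highest level, 16.8 CPM, in replicate 4, far above the other 5 libraries at 1.95 to 6.71 CPM. The same library had the highest OAS1 and OAS2 levels of its species. DTX1 among rhesus macaque males reached 4.88 CPM in replicate 1, from 8 counts that all fell in exon 5, while the other 3 males were between 0 and 0.499 CPM.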

How the results depend on the processing

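All 5 genes stayed higher in chimpanzee under every alternative that gave a value. Leaving out 1 library at a time gave log2 fold changes of 8.77 to 9.97 for OAS1, 6.34 to 7.15 for OAS3, 3.18 to 3.81 for OAS2, 1.87 to 2.70 for OASL and 7.69 to 9.09 for DTX1. With males only (3 chimpanzee and 4 rhesus macaque libraries), OAS1, OAS3, OAS2 and OASL had higher values of 9.65, 7.58, 4.45 and 3.05. DTX1 had a lower one, 7.38. In that setting 2762 genes passed the species test, 1378 higher and 1384 lower, where all libraries gave 4558, 2334 and 2224. The cause was not tested. Leaving out 1 library gave 4222 to 4801 genes, 2112 to 2475 of them higher and 2078 to 2326 lower. Without the strongest exon of each gene DTX1 had 9.30, on a rest of 1 rhesus macaque count. On exons counted in at least 3 libraries of each species OAS1 had no exon left. For sex, edgeR called 0 genes in chimpanzee and DESeq2 called 49; without 1 library edgeR called 0 to 2 in chimpanzee, 0 to 1 for the difference between the species and 0 in rhesus macaque. The sex effect of OAS2 in rhesus macaque ran from 0.996 to 1.97 without 1 library (edgeR adjusted p between 0.369 and 1). Other sex effects, none past the threshold, changed sign without 1 library: in chimpanzee OAS1 (-0.37 to 0.027) and OAS3 (-0.43 to 0.020), in rhesus macaque OAS1 (-3.62 to 2.06), OASL (-0.26 to 1.97) and DTX1 (-4.55 to 2.55), and between the species OAS1 (-2.21 to 3.48) and DTX1 (-1.46 to 5.64). Without the 2 libraries farthest from the median, r turned to -0.870 for OAS1 and DTX1, -0.846 for OAS3 and DTX1 and, in rhesus macaque, -0.713 for OAS2 and OASL. Correlations kept their side of the threshold with a prior count of 0.5 and with DESeq2 size factors. Alternatives for the symbol lists were not run. Depth limits OAS1, OAS3 and DTX1 in rhesus macaque, where 12, 32 and 15 counts are all there is. No paired analysis was possible because the labels give no replicate numbers that link the species.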

Other observations

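OASL, apart from the cluster, had neighbours of its own with and without a species difference. The nearest gene before it, 3.82 kb away with 4 exons, stood at 7.25 ± 1.58 CPM in the chimpanzee lines and 6.12 ± 2.22 CPM in the macaque lines (SD, n = 6 each), which gave a log2 fold change of 0.28. The gene before that, 17.8 kb from OASL, was at 49 counts over all chimpanzee lines and 53 over all macaque lines. The nearest gene after OASL, 93.7 kb away with 11 exons, stood at 12.5 ± 5.22 CPM in the chimpanzee lines and 0.337 ± 0.409 CPM in the macaque lines, a log2 fold change of 5.19 on 215 and 5 counts. It was followed by a gene at 86.0 ± 27.6 CPM in the chimpanzee lines and 38.1 ± 15.0 CPM in the macaque lines.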
